A study of Homo sapiens with 8 samples.

Results

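The chaperonin CCT, also called TRiC, was examined through the 8 genes that encode its subunits: TCP1, CCT2, CCT3, CCT4, CCT5, CCT6A, CCT7 and CCT8. The genes were chosen by name, and their counts were the sums of all deposited transcripts that GENCODE version 44 assigns to them. They were 8 of the 62639 genes of that annotation with a transcript among the deposited counts. The experiment used MOLM-13, a human acute myeloid leukemia cell line, carrying a lentiviral, doxycycline (dox) inducible shRNA. In 4 libraries the shRNA targeted PTBP1, an RNA-binding splicing regulator (shPTBP1, the PTBP1 KD cells), and in 4 it was scrambled (shSCR), with all cells given dox for 9 days. Both constructs also express mCherry at all times and ΔLNGFR after dox. Only 1 shRNA against PTBP1 and 1 scrambled shRNA were used, so loss of PTBP1 and any other difference between these cells cannot be told apart. Long reads of cDNA were sequenced by nanopore, and the deposited values are whole-number counts for each annotated transcript.

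CCT folds newly made proteins in the cytosol. It is a barrel of a pair of stacked rings, and each ring holds 1 copy of each of the 8 subunits at a fixed position, so that equal amounts of the subunits enter the complex. Actin and tubulin are its most abundant clients, and they reach it from the cochaperone prefoldin. Binding and hydrolysis of ATP open and close the barrel, and TCP1, CCT2, CCT4 and CCT5 are known as the subunits that bind ATP more tightly.

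Each subunit carries a conserved stretch at its nucleotide-binding site, which the codon pattern GGNGANGGNACN describes (N is any base). It is shown for all 8 subunits because both CCT5 and TCP1 had abundant transcripts whose annotated coding regions lack it. The pattern was chosen after the isoform values were seen. The sequences are the coding strand of GENCODE transcripts on GRCh38, with the pattern in capitals.

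TCP1-201: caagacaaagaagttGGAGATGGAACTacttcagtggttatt
CCT2-201: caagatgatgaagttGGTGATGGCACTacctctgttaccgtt
CCT3-201: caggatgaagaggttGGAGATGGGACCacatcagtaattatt
CCT4-201: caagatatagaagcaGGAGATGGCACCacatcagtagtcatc
CCT5-201: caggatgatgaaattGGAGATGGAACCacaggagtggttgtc
CCT6A-201: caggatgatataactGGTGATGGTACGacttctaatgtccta
CCT7-201: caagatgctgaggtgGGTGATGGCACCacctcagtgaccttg
CCT8-201: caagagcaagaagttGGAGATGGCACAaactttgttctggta

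The pattern occurred once in frame in each of these coding regions, between codon 87 in TCP1-201 and codon 103 in CCT4-201 and CCT5-201. The coding regions were 531 to 556 codons long. Of the 7232 tested genes with a counted protein-coding transcript, 136 (1.88%) held the pattern in frame in the most abundant one. They included 7 of the 8 subunits, the mitochondrial chaperonin HSPD1 and the chaperonin-like gene MKKS, and many genes of other families. The subunit missing from that count was CCT5, whose most abundant transcript lacks the exon that carries the pattern. A match is a description of the letters alone.

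The libraries held 1528449 to 1613342 counts, with 12322 to 12589 genes detected. PTBP1 itself stood at 6.33, 9.91, 8.56 and 14.7 normalized counts per 1000000 (CPM) in shPTBP1 replicates 1 to 4 and at 39.9, 57.3, 42.7 and 50.05 CPM in shSCR (log2 fold change -2.26 ± 0.22 SE, edgeR adjusted p = 7.2e-05). Of 8 myeloid markers, 6 were tested and none was at 0 in all libraries, but SPI1 had 1 count and FLT3 53 counts in total. The markers of the myeloid list summed to between 1686 and 1914 CPM in shPTBP1 and between 1478 and 1631 CPM in shSCR. CD68 was called higher (log2 fold change 0.36, edgeR adjusted p = 0.019), 1 of 6 tested, against 2.36% of all tested genes called higher. The part of these markers in the results below was not tested. The CD68 call was lost without shPTBP1 replicate 2, shPTBP1 replicate 4 or shSCR replicate 4 (adjusted p up to 0.067). Of 10 markers of other lineages, 7 were at 0 and none passed the filter.

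All 8 subunits were well measured, with 175 to 2239 counts per gene and library, and all passed the filter on low counts. No subunit was called higher or lower after PTBP1 KD (0 of 8 at an edgeR quasi-likelihood adjusted p under 0.05), against 421 of 7597 tested genes (5.54%). At an unadjusted p under 0.05 the count was also 0 of 8, against 19.2% of all genes tested, and DESeq2 called 0 of 8, against 5.91% of the genes for which it gave an adjusted p. The log2 fold changes lay between -0.04 (CCT2) and 0.11 (CCT4), 5 above 0 and 3 below, with a median of 0.03 against 0.00 for all genes. Their median size was 0.05, against 0.17 over all tested genes. It was 0.11 over the 1174 other tested genes between the lowest and highest subunit (129 to 1376 CPM), of which 11.3% were called. Within that band the genes were not matched by level. Among the 95% intervals of the 8 subunits, the lowest bound was a fall of 11.7% (CCT2) and the highest a rise of 23.8% (CCT4). For each subunit, changes within its own interval are compatible with the data, such as -7.1% to 8.3% for CCT5. In bulk RNA, fewer cells with a transcript and less of it per cell cannot be told apart.

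The scarcer subunits are given first. TCP1, the alpha subunit that gave the complex its name, lies on the minus strand at chr6:159778498-159789703. Its level was 328.4, 325.7, 326.5 and 323.3 CPM in shPTBP1 replicates 1 to 4 and 308.5, 315.2, 314.8 and 317.0 CPM in shSCR. The 4 shPTBP1 libraries were all above the 4 shSCR libraries, by 3.87% in the fitted fold. This was the only subunit whose groups did not overlap, 1 of 8 (12.5%) against 12.7% of all tested genes. The exact two-sided permutation test gave p = 0.029, the smallest that 4 against 4 allow. The edgeR fit, which moderates the spread of each gene towards that of genes at similar levels, gave a log2 fold change of 0.05 ± 0.06 SE (adjusted p = 0.66, 95% interval -0.07 to 0.18). TCP1 had 472 to 519 counts per library. Its coefficient of variation was only 0.641% in shPTBP1 and 1.18% in shSCR, and whether so small a spread would recur was not tested.

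CCT4, the delta subunit, lies on the minus strand at chr2:61868085-61888671 and was the scarcest. Its levels were 133.5, 121.6, 140.9 and 141.5 CPM in shPTBP1 and 107.5, 127.3, 123.4 and 139.2 CPM in shSCR. The groups overlapped, and the log2 fold change of 0.11 ± 0.09 SE was the largest of the 8 (edgeR adjusted p = 0.56, exact permutation p = 0.29). CCT6A, the zeta subunit made in most tissues (chr7:56051685-56063989, plus strand), stood at 226.5, 208.8, 209.3 and 210.6 CPM in shPTBP1 and at 181.9, 219.7, 208.1 and 214.3 CPM in shSCR. Its values crossed between the groups, with shSCR replicate 1 lowest and shPTBP1 replicate 1 highest. CCT6B, its testis counterpart, had 18 counts over the 8 libraries and was not tested.

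CCT8, the theta subunit (chr21:29055805-29073797, minus strand), stood at 924.3, 878.0, 937.4 and 874.6 CPM in shPTBP1 and at 817.3, 886.3, 864.9 and 823.8 CPM in shSCR. Only shSCR replicate 2 lay among the shPTBP1 values. The log2 fold change was 0.09 ± 0.05 SE (95% interval -0.03 to 0.21, edgeR adjusted p = 0.40, exact permutation p = 0.086), the lowest adjusted p of the 8. CCT7, the eta subunit (chr2:73233420-73253021, plus strand), ranged from 818.9 to 909.1 CPM in shPTBP1 and from 774.3 to 925.2 CPM in shSCR. Its shPTBP1 values all fell within the shSCR range (log2 fold change -0.01 ± 0.07 SE, edgeR adjusted p = 0.96).

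CCT2, the beta subunit (chr12:69585426-69601570, plus strand), stood at 940.8, 938.8, 928.9 and 906.6 CPM in shPTBP1 and at 942.6, 890.8, 1073 and 924.6 CPM in shSCR. The shSCR values were the more scattered, with replicate 3 alone above 1000, and the log2 fold change of -0.04 ± 0.06 SE became 0.01 without that library (edgeR adjusted p = 0.77 with all libraries). CCT3, the gamma subunit (chr1:156308968-156367873, minus strand), ranged from 882.8 to 960.6 CPM in shPTBP1 and from 896.5 to 995.6 CPM in shSCR (log2 fold change -0.04 ± 0.06 SE, edgeR adjusted p = 0.76). CCT5, the epsilon subunit (chr5:10249929-10266389, plus strand), was the most abundant, at 1413, 1428, 1338 and 1335 CPM in shPTBP1 and 1376, 1345, 1340 and 1436 CPM in shSCR. The groups covered nearly the same range, with a log2 fold change of 0.00 ± 0.05 SE (95% interval -0.11 to 0.12, edgeR adjusted p = 0.98).

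**Figure D1:**
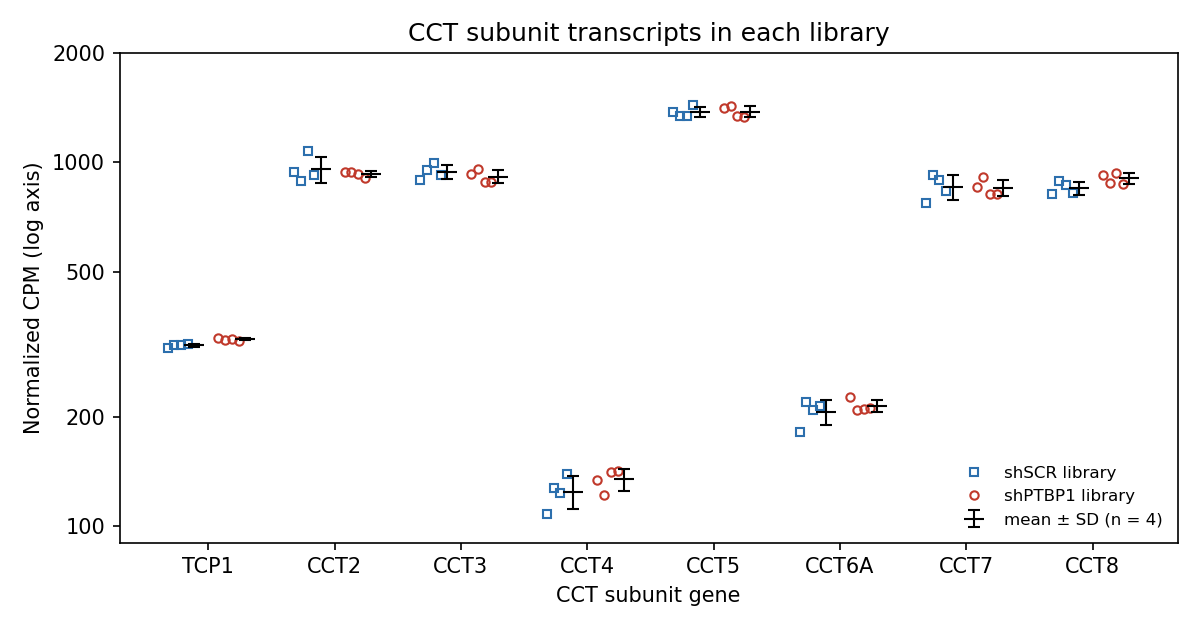
Normalized CPM (log axis) of each CCT subunit gene, with one open symbol for each library (squares shSCR, circles shPTBP1) and bars for the mean ± SD of 4 libraries. The groups overlap for every subunit except TCP1, where the shPTBP1 libraries (323.3 to 328.4 CPM) lie above the shSCR libraries (308.5 to 317.0 CPM).

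Replicates of the subunits varied little. The median coefficient of variation within a group was 4.06% for the 8 subunits, and it ran from 0.641% (TCP1 in shPTBP1) to 10.5% (CCT4 in shSCR). For the 1174 other genes at 129 to 1376 CPM the median was 6.77%. Within that wide band the genes were not matched to the subunits by level, and the part of level in this difference was not tested. The 8 subunits summed to 5752, 5770, 5582 and 5496 CPM in shPTBP1 and to 5404, 5661, 5812 and 5610 CPM in shSCR. These sums overlapped, with means of 5650 ± 133 and 5622 ± 168 CPM (SD, n = 4). Between 0.534% and 0.580% of all counts of a library came from the 8 genes.

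Subunits were correlated with each other to different degrees. Over the 8 libraries, Pearson's r between the log2 levels of a pair of subunits ranged from -0.304 to 0.815 over the 28 pairs, with a median of 0.153 and 18 pairs above 0. The genes most like the summed level, the highest of 7423 compared over the same 8 libraries, were HAX1 (r = 0.959), an adaptor of the mitochondrion, HAUS5 (r = 0.923), a subunit of the augmin complex of the spindle, and PARL (r = 0.909), a protease of the inner mitochondrial membrane. These coefficients are descriptions over 8 libraries that share their normalization, and none of these genes was called (log2 fold changes 0.00, -0.05 and 0.01). HAUS5 averaged only 6.61 CPM, where counting noise is large. As the highest of 7423 genes, the 3 were picked for high coefficients.

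The stoichiometry of the transcripts was far from equal. Levels between genes were compared per length, as each transcript's normalized CPM divided by its annotated length in kb and summed over the gene. Equal amounts would give each subunit 12.5% of the pool. Instead 5 subunits each held over 15% in every library (CCT5, CCT2, CCT8, CCT3 and CCT7) and 3 held under 6% (TCP1, CCT6A and CCT4). The highest level per kb was 8.15 to 11.8 times the lowest within a library, and 9.43 to 12.8 times in plain counts. With long reads a molecule can give 1 read whatever its length, so the size of these ratios depends on the division. Reads below the mapping quality filter were not counted, and whether this lowered some subunits more than others was not tested.

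In order of level per kb over all libraries, CCT5 came first (642 CPM per kb, range 619 to 674), above CCT2 (535, range 499 to 608) in all 8 libraries and with no overlap of their ranges. CCT2 was above CCT8 (473) in every library although their ranges overlapped. CCT8, CCT3 (471) and CCT7 (466) did not differ beyond their spread over the 8 libraries, and their order was not the same in both groups. CCT8 was above CCT3 in 3 of 4 shPTBP1 libraries (means of 488 ± 17.3 and 464 ± 20.1 CPM per kb, SD, n = 4) and in 0 of 4 shSCR libraries (458 ± 17.8 and 477 ± 22.1). CCT3 was above CCT7 in 1 of 4 shPTBP1 and 3 of 4 shSCR libraries. These splits were noticed in the values and the change of order was not tested. A gap followed, with CCT7 2.98 times the level per kb of TCP1 (156, range 154 to 159). TCP1 was 1.91 times CCT6A (82.0, range 71.6 to 90.4), which was above CCT4 (65.1, range 54.4 to 75.9) in every library, with overlapping ranges.

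The shares of the pool differed between the groups by at most 1.03 percentage points. That largest difference was for CCT8, which held 17.0%, 15.98%, 17.7% and 16.8% of the pool in shPTBP1 and 15.8%, 16.5%, 15.6% and 15.4% in shSCR. Only shSCR replicate 2 reached into the shPTBP1 range, and the exact permutation test gave p = 0.057. CCT4 held 2.39% ± 0.27 in shPTBP1 and 2.12% ± 0.22 in shSCR (SD, n = 4, exact permutation p = 0.17). CCT3 held 16.03% ± 0.35 and 16.52% ± 0.32 (exact permutation p = 0.11), and CCT2 held 18.1% ± 0.26 and 18.9% ± 1.33 (exact permutation p = 0.29). For CCT2, leaving out any 1 of 7 libraries gave a difference of -0.96 to -0.36 percentage points (lowest exact permutation p = 0.29). Without shSCR replicate 2, the only shSCR library not above all shPTBP1 libraries, it was -1.41 points (exact permutation p = 0.029). That omission separates the groups by construction, so its p adds no support.

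For the other subunits the means of the shares lay closer together. CCT5 held 22.3% ± 0.47 of the pool in shPTBP1 and 22.2% ± 1.12 in shSCR, CCT7 held 16.05% ± 0.42 and 16.17% ± 0.91, TCP1 held 5.41% ± 0.13 and 5.43% ± 0.14, and CCT6A held 2.89% ± 0.15 and 2.79% ± 0.18 (SD, n = 4). None of the 8 shares separated the groups, and over the 8 tests the exact permutation p ran from 0.057 to 0.94. The 4 subunits that bind ATP more tightly together held 48.2% ± 0.25 in shPTBP1 and 48.7% ± 1.57 in shSCR, with overlapping values.

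**Figure D2:**
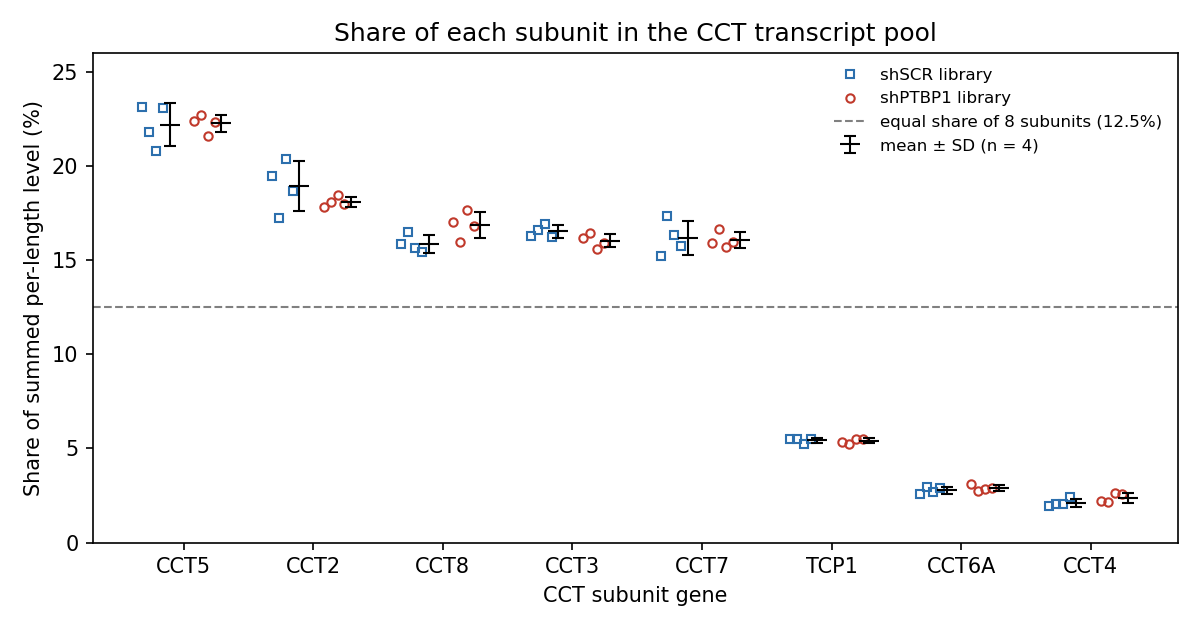
Share of each subunit in the summed per-length level of the 8 CCT subunits (%), with one open symbol for each library, bars for the mean ± SD of 4 libraries, and a dashed line at the equal share of 12.5%. CCT5, CCT2, CCT8, CCT3 and CCT7 lie above the line and TCP1, CCT6A and CCT4 below it in every library of both groups.

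GENCODE lists 104 transcripts for the 8 genes, and 65 of them had counts. For CCT3, CCT6A, CCT7, CCT8, CCT2 and CCT4 a single transcript held most of the counts, with mean shares between 91.7% (CCT4-201 in shPTBP1) and 99.0% (CCT3-201 in shPTBP1). TCP1 was split over 3 transcripts and CCT5 over 3 that were nearly equal. How reads that do not span a whole transcript were divided among overlapping transcripts was not tested. Isoform usage was tested for 18 transcripts of 6 of the genes, since only 1 transcript of CCT3 and of CCT6A passed the filter. None was called (0 of 18, with edgeR's diffSpliceDGE, an adjusted p under 0.05 and a share that moved by at least 10 percentage points), against 61 of 5464 tested isoforms (1.12%). With a minimum of 5 percentage points there were again 0, against 1.35% of all, and limma's diffSplice called 0. At an unadjusted p under 0.05 there were 2 of 18, TCP1-215 and CCT8-204, against 6.37% of all tested isoforms. The shares of 2 of the 18 did not overlap between the groups, TCP1-201 and TCP1-215, against 10.7% of all tested isoforms.

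TCP1-201, the full-length coding transcript, held 72.1%, 71.0%, 73.8% and 69.1% of the TCP1 counts in shPTBP1 and 63.9%, 66.5%, 68.6% and 67.4% in shSCR. Every shPTBP1 library was above every shSCR library, with means of 71.5% ± 1.96 and 66.6% ± 1.99 (SD, n = 4, exact permutation p = 0.029, diffSpliceDGE adjusted p = 1.00). TCP1-215, a shorter coding transcript, held 5.78%, 4.46%, 6.05% and 6.14% in shPTBP1 and 9.16%, 6.46%, 8.47% and 8.91% in shSCR. All shPTBP1 values were lower, with means of 5.61% ± 0.78 and 8.25% ± 1.23 (exact permutation p = 0.029, diffSpliceDGE adjusted p = 0.45). TCP1-202 held 21.6% ± 2.45 and 23.1% ± 2.03, with overlapping values.

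TCP1-202 and TCP1-215 skip an exon of 86 bases that TCP1-201 contains, and 86 is no multiple of 3. The exon was chosen for description after these values were seen. The sequence, printed to show where the transcripts part, is the minus strand of chr6:159788058-159788203 (GRCh38), with the last 60 bases of the intron before it in lower case and the exon in capitals.

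TCP1 exon: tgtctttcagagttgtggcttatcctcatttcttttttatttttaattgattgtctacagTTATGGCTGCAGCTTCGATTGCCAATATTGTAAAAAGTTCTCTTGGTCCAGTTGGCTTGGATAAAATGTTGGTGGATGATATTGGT

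PTBP1 is known to bind pyrimidine-rich RNA, with motifs such as TCTT and CTCTCT in DNA letters. The 60 intron bases were 68.3% pyrimidine and held TCTT 2 times and CTCTCT 0 times on the coding strand as printed, the only strand searched. Over 78300 internal exons of protein-coding transcripts of the tested genes, the same window had a median of 58.3% pyrimidine (quartiles 53.3% and 63.3%). At least 1 TCTT was held by 54.6% of windows and at least 1 CTCTCT by 6.13%. Binding of PTBP1 to TCP1 RNA was not tested. The exon was included in 73.2%, 72.4%, 75.6% and 70.1% of TCP1 counts in shPTBP1 and in 65.5%, 69.1%, 70.3% and 69.4% in shSCR. Only shPTBP1 replicate 4 fell within the shSCR range. The difference was 4.23 percentage points (exact permutation p = 0.057). With any 1 of the other 7 libraries left out it was 3.21 to 4.81 points (lowest exact permutation p = 0.057). Without shPTBP1 replicate 4 the difference was 5.15 points (exact permutation p = 0.029). Leaving out the only overlapping library separates the groups by construction, so that p adds no support. The annotated coding regions of TCP1-202 and TCP1-215 lack the codon pattern shown above, which TCP1-201 has in its exon 3 (chr6:159787752-159787763). The pattern lies outside the skipped exon, and only annotated coding regions were searched, so the RNA of these transcripts may still hold its bases. The share of TCP1 counts on transcripts with the pattern in frame in their annotated coding region was 71.7% ± 1.97 in shPTBP1 and 66.9% ± 1.98 in shSCR. This is nearly the share of TCP1-201 itself.

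CCT5 counts were divided among CCT5-205, CCT5-201 and CCT5-203, which differ in their first exons, their ends and 1 internal exon. CCT5-205 held 36.8%, 38.6%, 32.3% and 34.9% of CCT5 counts in shPTBP1 and 35.5%, 33.6%, 31.3% and 34.8% in shSCR. The groups overlapped, with means of 35.7% ± 2.68 and 33.8% ± 1.84 (exact permutation p = 0.26). CCT5-201 held 31.0% ± 2.38 and 31.4% ± 1.05, and CCT5-203 held 27.6% ± 0.66 and 28.7% ± 1.68 (SD, n = 4). Both overlapped between the groups as well.

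CCT5-205 lacks an exon of 165 bases, a multiple of 3, which CCT5-201 and CCT5-203 contain and which carries the codon pattern (chr5:10254814-10254825). It is printed because CCT5-205, the most abundant CCT5 transcript, lacks it. The sequence is the plus strand of chr5:10254614-10254838 (GRCh38), with 60 intron bases in lower case and the exon in capitals. This exon too was chosen after the values were seen.

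CCT5 exon: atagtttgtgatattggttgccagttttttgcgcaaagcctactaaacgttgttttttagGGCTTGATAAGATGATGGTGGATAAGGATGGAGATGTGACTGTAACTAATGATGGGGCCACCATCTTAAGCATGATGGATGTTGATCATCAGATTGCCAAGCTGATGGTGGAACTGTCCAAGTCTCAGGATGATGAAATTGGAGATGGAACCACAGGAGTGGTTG

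The intron bases were 56.7% pyrimidine and held neither TCTT nor CTCTCT. Among counts of CCT5 transcripts that either hold or skip the exon, inclusion was 60.7%, 57.7%, 65.0% and 62.2% in shPTBP1 and 60.9%, 63.3%, 65.3% and 62.1% in shSCR. These ranges overlapped broadly, with a difference of -1.52 percentage points (exact permutation p = 0.40).

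**Figure D3:**
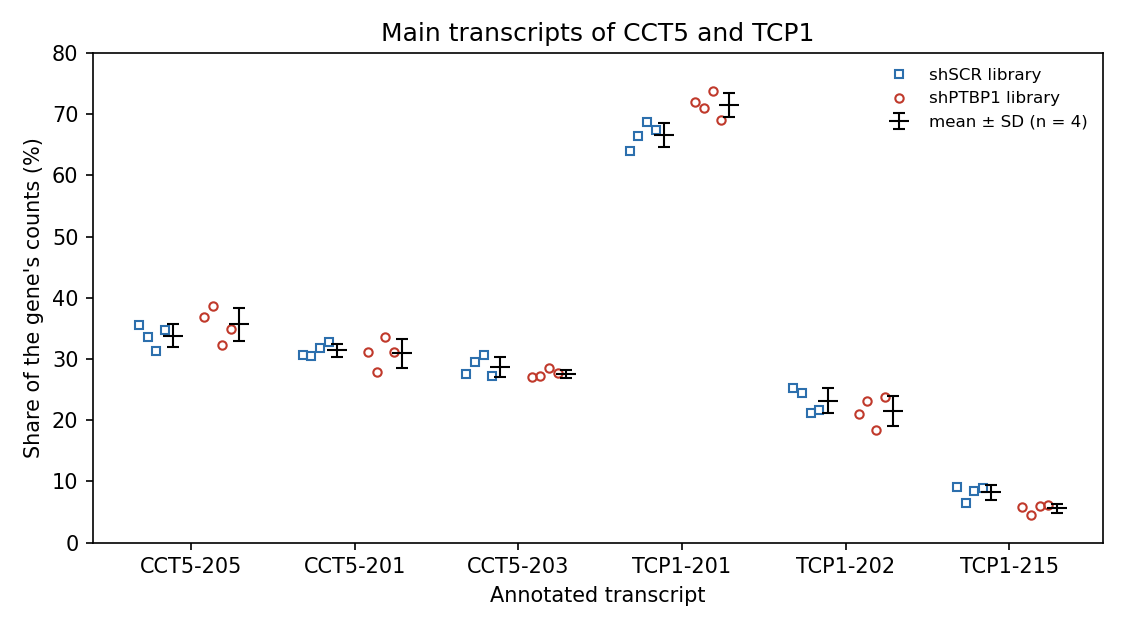
Share of the gene's counts (%) held by the 3 main transcripts of CCT5 and of TCP1, with one open symbol for each library (squares shSCR, circles shPTBP1) and bars for the mean ± SD of 4 libraries. Only TCP1-201 and TCP1-215 separate the groups, with TCP1-201 higher (69.1% to 73.8% against 63.9% to 68.6%) and TCP1-215 lower in shPTBP1.

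Transcripts that GENCODE does not class as protein coding took a small part of each gene, at most 7.85% ± 2.33 (CCT4 in shPTBP1, against 6.07% ± 1.51 in shSCR), mostly on CCT4-203. For CCT8 the share was 2.26% ± 0.51 in shPTBP1 and 1.58% ± 0.28 in shSCR (SD, n = 4, exact permutation p = 0.057). For CCT2 it was 3.44% ± 0.72 and 4.16% ± 0.75. The groups overlapped for all 8 genes.

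Other annotated genes on the same bases could share reads with a subunit, and whether counting used strand is not given in the sources used here. ACAT2, an acetyl-CoA acetyltransferase gene on the opposite strand, shares 454 bases of exon with TCP1. It had 320 counts and a log2 fold change of -0.02 (edgeR adjusted p = 0.97). A long non-coding RNA without a symbol overlaps 1734 exon bases of CCT5 and had 9 counts. Others that overlap CCT4, CCT8 and TCP1, SNORA29 among them, were at 0. The 14 annotated pseudogenes of the subunits held 4 counts in all, against 70034 for the subunits.

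Prefoldin delivers actin and tubulin to CCT. Of its 6 subunits, all tested, 2 rose, against 2.36% of all tested genes called higher, and 0 fell, with a median log2 fold change of 0.19. VBP1, the PFDN3 subunit, stood at 478, 439, 493 and 489 CPM in shPTBP1 and at 366, 393, 425 and 398 CPM in shSCR. The groups did not overlap (log2 fold change 0.26 ± 0.07 SE, edgeR adjusted p = 0.034). PFDN5, which also binds the MYC protein, stood at 306, 374, 345 and 336 CPM in shPTBP1 and at 261, 276, 279 and 296 CPM in shSCR, again without overlap (log2 fold change 0.29 ± 0.07 SE, edgeR adjusted p = 0.034). PFDN1, PFDN2, PFDN4 and PFDN6 were not called, with log2 fold changes from -0.02 to 0.24. The shares over all genes, here and for the lists below, are not matched for level. Of the 1174 genes other than CCT subunits at 129 to 1376 CPM, 11.3% were called in either direction. These calls lay near the threshold: that of VBP1 held only without shPTBP1 replicate 2 or shSCR replicate 3 among the 8 fits with a library left out (adjusted p up to 0.10), and that of PFDN5 only without shPTBP1 replicate 1 (up to 0.11).

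Among the clients, tubulins and actins differed in direction. Of 11 tested, 1 rose and 2 fell, against 3.19% of all tested genes called lower, with a median log2 fold change of -0.04. TUBB, a beta tubulin, stood at 805, 686, 716 and 731 CPM in shPTBP1 and at 1007, 905, 1020 and 948 CPM in shSCR. It was lower in every shPTBP1 library (log2 fold change -0.40 ± 0.06 SE, edgeR adjusted p = 0.0033), and the call held with any 1 library left out. TUBB6, another beta tubulin, was also lower (243 ± 29.6 against 304 ± 11.4 CPM, log2 fold change -0.32, edgeR adjusted p = 0.038), a call that held only without shPTBP1 replicate 1 when 1 library was left out (adjusted p up to 0.13 otherwise) and was lost with the replicate block (0.069). TUBA1B, the main alpha tubulin here, was higher (11127 ± 101 against 9487 ± 624 CPM, log2 fold change 0.23 ± 0.05 SE, edgeR adjusted p = 0.019). Its call was lost without shPTBP1 replicate 3, shPTBP1 replicate 4, shSCR replicate 1 or shSCR replicate 4 (adjusted p up to 0.077). The alpha tubulin genes resemble each other closely in their coding parts, as do the beta tubulin genes, so reads could be split within each family. ACTB and ACTG1, the cytoplasmic actins, had log2 fold changes of -0.02 and -0.10 (edgeR adjusted p = 0.92 and 0.26).

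Of 10 other tested clients, 2 fell and 0 rose, against 3.19% of all tested genes called lower and 2.36% called higher, with a median log2 fold change of -0.11. CDC20, the WD40 activator of the anaphase-promoting complex, stood at 747, 811, 748 and 740 CPM in shPTBP1 and at 922, 1112, 915 and 1031 CPM in shSCR. The groups did not overlap, and the call held with any 1 library left out (log2 fold change -0.39 ± 0.07 SE, edgeR adjusted p = 0.0072). MLST8, a WD40 subunit of the mTOR complexes, was at 41.3 ± 3.10 against 58.9 ± 7.01 CPM (SD, n = 4, log2 fold change -0.51, edgeR adjusted p = 0.024). That call was lost in DESeq2 (adjusted p = 0.078), with the replicate block (0.062) and without shPTBP1 replicates 1, 3 or 4 or shSCR replicates 1 or 4 (up to 0.076).

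**Figure D4:**
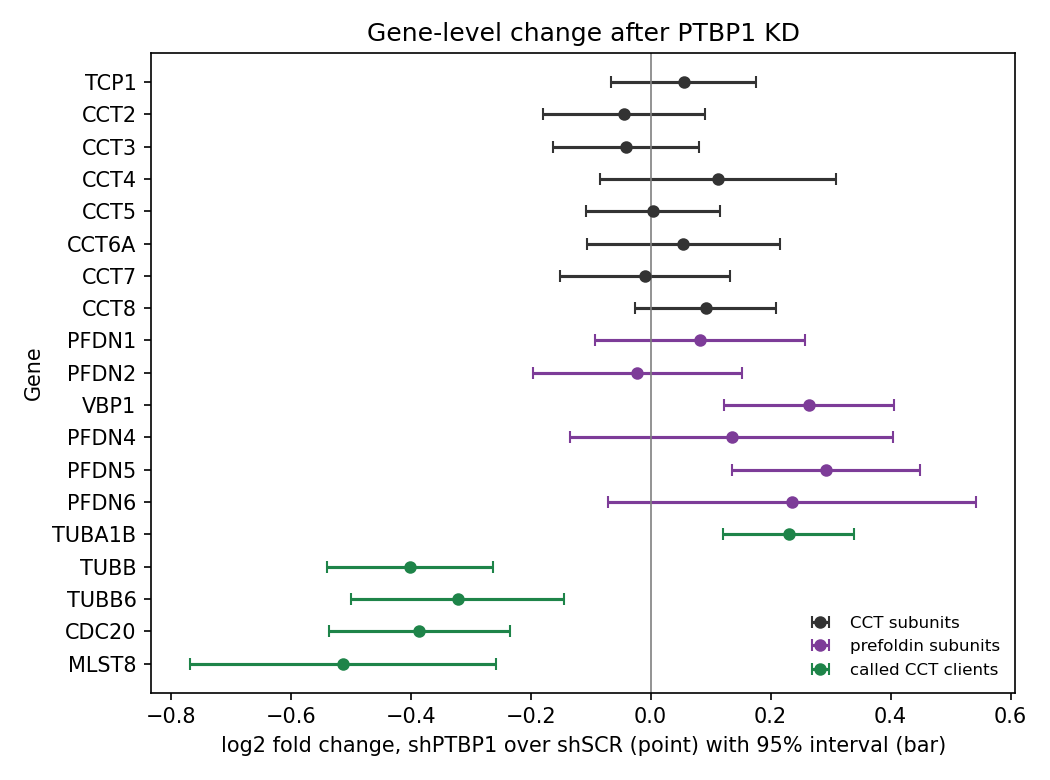
Log2 fold changes (shPTBP1 over shSCR, points) with 95% intervals (bars) for the 8 CCT subunits, the 6 prefoldin subunits and the 5 CCT clients that were called. The intervals of all CCT subunits include 0, while those of VBP1, PFDN5 and TUBA1B lie above it and those of TUBB, TUBB6, CDC20 and MLST8 below.

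Other cochaperones held 1 call. None of 2 tested prefoldin-like genes (UXT, a prefoldin-related subunit, 0.07), 3 phosducin-like cochaperones (TXNDC9, -0.06) and 3 gene identifiers of CCT-related genes (MKKS, -0.05) was called, the values being log2 fold changes of the most abundant member. Of 5 tested tubulin folding cofactors, which take over tubulin after CCT, 1 rose, against 2.36% of all tested genes called higher: ARL2, a small GTPase that works with them (367 ± 19.2 against 293 ± 28.5 CPM, log2 fold change 0.32, edgeR adjusted p = 0.027). That call held only without shPTBP1 replicate 1 or shSCR replicate 2 when 1 library was left out (adjusted p up to 0.088).

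For comparison, the 14 core subunits of the 20S proteasome, another complex of fixed composition, had a median log2 fold change of 0.04, with 1 of 14 called against 5.54% of all tested genes. PSMB5, which carries the chymotrypsin-like site, rose (470 ± 14.6 against 395 ± 20.1 CPM, log2 fold change 0.25, edgeR adjusted p = 0.030), a call lost with the replicate block (0.055) and kept only without shPTBP1 replicate 1 or shSCR replicate 3 (up to 0.089). Of 13 other chaperones, 1 rose and 1 fell, again against 5.54% of all tested genes called either way, with a median log2 fold change of 0.07. HSPA8, the constitutive HSP70 that hands clients on to CCT, was at 5630 ± 203 against 4710 ± 436 CPM (SD, n = 4, log2 fold change 0.26, edgeR adjusted p = 0.033). Its call was lost with the replicate block (0.067) and kept only without shSCR replicate 3 or 4 (up to 0.10). TRAP1, the mitochondrial HSP90, was at 13.6 ± 2.37 against 27.8 ± 11.1 CPM (log2 fold change -1.03, edgeR adjusted p = 0.049). Its call was lost in DESeq2 (0.056) and kept only without shSCR replicate 1 or 3 (up to 0.14). HSPD1, the chaperonin of the mitochondrion, had a log2 fold change of 0.20 (edgeR adjusted p = 0.075, DESeq2 0.013), and whether CCT and the other lists differ in their response was not tested.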

How the data were processed

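PTBP1 KD and control MOLM-13 cells were compared (4 libraries each, biological replicates per the labels). The authors mapped nanopore cDNA reads to hg38 with minimap2, kept those above a mapping quality of 50 and obtained transcript counts with StringTie, and tested them with DESeq2 (versions and annotation not given in the sources used here). The deposited counts are whole numbers without normalization. The table the authors named TPM holds CPM, the count over the library total per 1000000, and was used for 1 alternative.

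Transcripts were joined to GENCODE 44 on GRCh38 by identifier (252562 of 254070). Gene sums were tested with edgeR 4.0.16 (TMM, filterByExpr with a minimum count of 10, quasi-likelihood, Benjamini-Hochberg over all genes), which kept 7597 genes. Called means an adjusted p under 0.05. Normalized CPM used TMM library sizes. Single values were compared by exact two-sided permutation tests, whose smallest p is 0.029. Isoforms were tested with diffSpliceDGE. The scripts were tested on simulated data. Precision is limited by the counts per library (1528449 to 1613342), and copies made by amplification are not independent molecules.

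The alternatives were DESeq2 1.42.0, limma 3.58.1 (voom, trend and diffSplice), other size factors, filters and length rules, thinning, the replicate block and each library left out. The members and gene lists were chosen with earlier results of these data known. Named genes were the subunits, PTBP1, called list genes, the most abundant member of each list without a call, genes sharing at least 50 exon bases with a subunit, pseudogenes with at least 10 counts, the 3 genes most correlated with the summed level, and transcripts with at least 5% of a subunit. Other genes and transcripts named for a value, such as HSPD1, CCT6B, the actins and CCT8-204, were chosen after their values were seen. Figures used matplotlib 3.10.9.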

Additional observations from a re-analysis of the deposited data

Results flagged for a closer look

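In 68 groups of 4 libraries (levels, shares and isoform shares of the subunits), 4 held a library set apart from the other 3 by Dixon's test at 95%, which chance gives in about 1 group in 20. TCP1 made up 5.22% of the per-length CCT pool in shSCR replicate 3, against 5.48% to 5.52% in the other shSCR libraries. CCT6A stood at 226 CPM in shPTBP1 replicate 1, against 209 to 211 CPM in the others. CCT5-213, a minor coding transcript that lacks the 165-base exon, held 2.82% of CCT5 counts in shPTBP1 replicate 2, against 1.79% to 1.97%. CCT5-206 held 0.815% of CCT5 counts in shPTBP1 replicate 4, against 0.416% to 0.448%.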

How the results depend on the processing

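No subunit was called under any of the 8 alternative fits or with any library left out, and no isoform of a subunit was called by diffSplice, with a minimum change of 5 percentage points, with the other filter, with the block or with a library left out. The number of all genes called ranged from 184 (without shPTBP1 replicate 3) to 495 (no filter on low counts), against 421.

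The log2 fold change of CCT5 was -0.014 with a mean of at least 50 counts and -0.034 with limma-trend. With a library left out, the log2 fold changes ranged from -0.077 to 0.015 for CCT2, -0.013 to 0.027 for CCT5, -0.00081 to 0.088 for CCT6A and -0.055 to 0.030 for CCT7. The difference in share (percentage points) was 0.186 for TCP1 and -0.0756 for CCT5 in plain counts, 0.0828 and -0.0373 in protein-coding transcripts only, and -0.019 for CCT5 as a log2 ratio to the geometric mean. With a library left out it ranged from -0.0841 to 0.0377 for TCP1, -1.41 to -0.36 for CCT2, -0.404 to 0.378 for CCT5 and -0.435 to 0.277 for CCT7. The cause was not tested.

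The replicate numbers were treated as names, since same-numbered libraries did not deviate together (correlations -0.0328 to 0.0089). With the replicate number as a block, 0 subunits and 0 isoforms were called, and 323 genes in all. A sign permutation over 4 pairs cannot give a p under 0.125.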
